A study of Mus musculus with 12 samples.

Results

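The Egr and Nr4a transcription factors, their Nab corepressors and serum response factor were examined in the mouse heart. The list held 10 genes, *Egr1*, *Egr2*, *Egr3*, *Egr4*, *Nab1*, *Nab2*, *Nr4a1*, *Nr4a2*, *Nr4a3* and *Srf*, and their probes were found by the gene name given in the scanner files. A total of 15 of the 56605 non-control probes carried 1 of these names, for 9 of the 10 genes and among 37074 names on the array, and no probe carried the name *Nab1*. The genes were chosen by their signal in these same 4 groups of arrays, so the differences between groups given for them are a description. Where the number of their probes past a threshold is given for the main fit, it stands beside the same share over the array. Some counts under alternative processing stand without it. Nothing is read from any such count, because the choice of the genes fixed it.

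Heart muscle of 12 male C57BL6/J mice, 5 months of age, was profiled with 1 array per mouse and no pooling. The mice were 6 to 7 weeks old and weighed at least 20 g at the start. Streptozotocin, which is toxic to the pancreatic β-cells, was injected daily for 5 days at 50 mg/kg to make mice diabetic, and a blood glucose of at least 17 mM was taken as diabetes. Treated mice then received pargyline, which inhibits monoamine oxidase (MAO), for 12 weeks at a daily dose of 50 mg/kg, and the other mice received vehicle. Of the 4 groups of 3 mice, C and D received vehicle and C+P and D+P received pargyline, and D and D+P were the diabetic groups. Streptozotocin diabetes is a model of insulin loss and not of insulin resistance, and pargyline blocks both MAO isoforms.

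Most of these genes are immediate early genes, which are transcribed within minutes of a stimulus without new protein synthesis and whose mRNA decays quickly. In the classical route, kinases of the ERK pathway phosphorylate ternary complex factors bound with SRF at CArG boxes of the *Egr* promoters, while CREB and MEF2 factors act at *Nr4a* promoters. EGR proteins are zinc finger factors that bind GC-rich sites and induce *Nab2*, whose protein in turn binds EGR proteins and represses them. NR4A proteins are orphan nuclear receptors that bind as monomers or dimers. In the heart both families are known to respond to adrenergic stimulation, stretch and ischaemia.

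Promoter sequence was taken from RefSeq for most of the listed genes, to show which of these factors' sites lie near their start. Windows of 300 bases, from 250 before to 50 after a transcription start in GRCm38.p6, were used for 8 of the 10 genes and numbered 12. No window was used for *Egr1* or *Egr3*. These 2 genes were not searched, so nothing is said here about sites in their promoters. Both strands were searched for the CArG box, TGACGTCA (the CREB site), GCGNGGGCG (the EGR site), AAAGGTCA (the monomer site of NR4A) and the MEF2 site. *Egr2* held 2 CArG boxes and *Srf* held 2, while the CArG box occurred in 1.63% of all 32851 windows. The EGR site was present in *Nab1* (3 sites), *Nr4a1*, *Nr4a2* and *Srf*, compared with 5.55% of all windows. A MEF2 site was present in *Nr4a2* alone among the 8 genes, and in 3.19% of all windows. The CREB site and the NR4A site, found in 1.79% and 1.51% of all windows, had no match in the 8 genes, and no motif of the 5 matched in *Egr4*, *Nab2* or *Nr4a3*. The sequences below run 5′ to 3′ on the strand of the gene with the motif in capitals, and positions count from -1 at the base before the start.
Egr2 CArG box at -72 (chr10:67537787-67537816, plus strand): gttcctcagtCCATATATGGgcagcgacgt
Egr2 CArG box at -72 of another start (chr10:67537484-67537513, plus strand): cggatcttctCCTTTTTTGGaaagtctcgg
Srf CArG box at -82 (chr17:46556225-46556254, minus strand): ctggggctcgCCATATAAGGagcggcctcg
Srf CArG box at -62 (chr17:46556205-46556234, minus strand): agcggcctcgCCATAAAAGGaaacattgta
Nr4a1 EGR site, reverse strand, at -60 (chr15:101266776-101266805, plus strand): gcgtcagtggCGCCCCCGCccctctccatg
Nr4a2 EGR site at -74 (chr2:57124058-57124087, minus strand): cgcggggtgcGCGCGGGCGgcgacaatgaa
Nr4a2 MEF2 site at -167 (chr2:57124151-57124180, minus strand): gggcggcgggTTATTTATAGcgccggctgc
A match describes the letters in the window and does not show that the factor binds there.

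Array quality and tissue were checked first. Between 23556 and 29231 of 59305 non-control spots per array were well above background, and 0 were saturated. Precision is limited by having 3 arrays in each group. All 6 cardiomyocyte markers were well above background on 12 of 12 arrays. Of the 3 atrial markers, *Myl4* was well above background on 12 arrays, *Myl7* on 1 array of each group and *Sln* on none. C and D lay on 1 slide and C+P and D+P on the other, so slide and pargyline cannot be told apart, and slide row and diabetes cannot be told apart either. Noise between repeated spots of a probe, as a median coefficient of variation, was out of the scanner software's accepted range on 5 arrays. These were replicate 1 of all 4 groups, with 10.1% in C, 23.2% in D, 16% for C+P and 15.1% for D+P, and replicate 3 of D+P with 12.8%, against 3.89% to 5.68% on the other arrays. Leaving these 5 out keeps 2 arrays each of C, C+P and D but 1 of D+P, so values of D+P without them rest on 1 array, assumed to vary like the other groups.

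The signal of *Egr1*, *Egr2*, *Egr3*, *Nr4a1* and *Nr4a2* was higher in non-diabetic hearts given pargyline than in any other group. Each of these genes had a probe on which all 3 C+P arrays lay above all 9 other arrays. *Nab2* showed the same order with a smaller difference on its brighter probe. The brightest *Nr4a3* probe and the *Srf* probe overlapped between C+P and C, and *Egr4* was not well above background on any array. Among the 8 member probes that passed the filter on dim signal, 6 had every C+P array above all 9 others, while 1.25% of the 30859 tested probes did. The filter asked for positive and significant signal in each group on 50% or more of its arrays, and the remaining 7 member probes did not meet it. In bulk heart RNA, fewer cells of a type and less RNA per cell cannot be told apart.

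**Figure D1:**
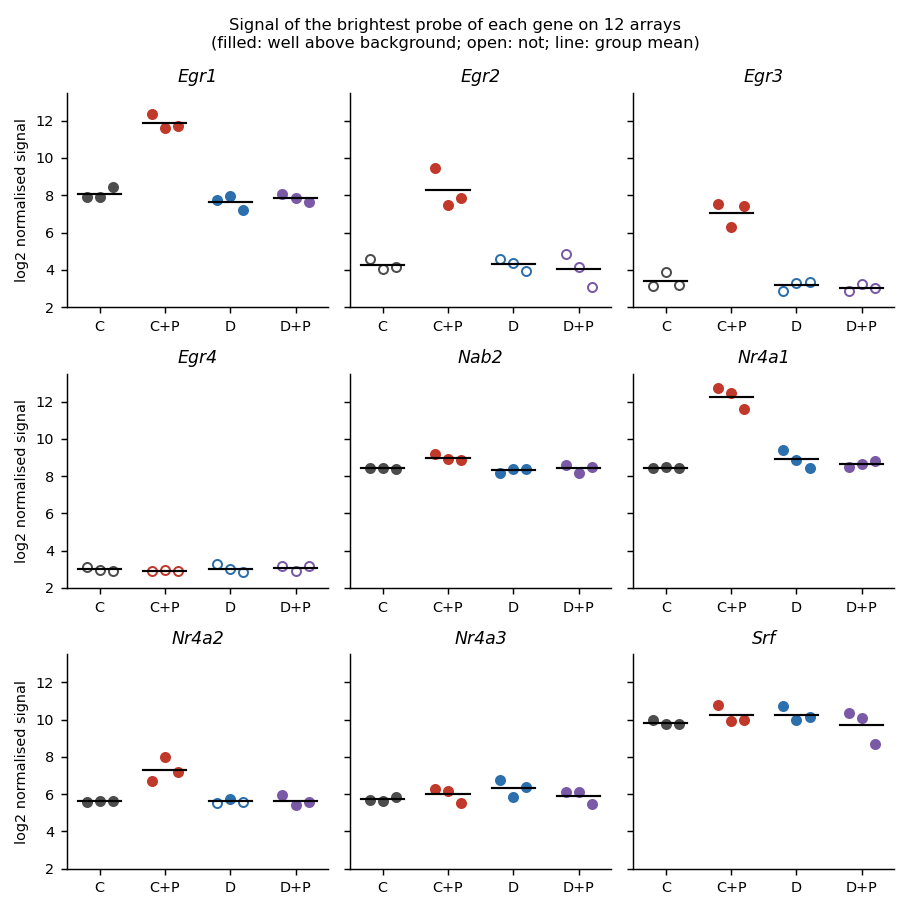
The vertical axis gives the log2 normalised signal of the brightest probe of each of the 9 genes that had a probe, and the horizontal axis gives the 4 groups with 3 arrays each. Filled points were well above background, open points were not, and lines are group means. The C+P arrays of *Egr1* lay between 11.60 and 12.37 and its other 9 arrays between 7.22 and 8.43. Heights of different genes are not comparable, since each probe has its own brightness.

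*Egr1* encodes the family member best known for its response to growth factors and stretch. On the log2 scale its normalised signal was 7.91, 7.91 and 8.43 in C, 12.37, 11.60 and 11.74 in C+P, 7.76, 7.97 and 7.22 in D, and 8.05, 7.86 and 7.63 in D+P. The 3 C+P arrays stood apart from all others, and the other 3 groups overlapped each other. The mean of C+P was 11.90 ± 0.41 (SD, n = 3), against 8.08 ± 0.30 in C, 7.85 ± 0.21 in D+P and 7.65 ± 0.39 in D (SD, n = 3 each). C+P exceeded C by 3.82 log2 (SE 0.27), or 14.1-fold. D+P was 16.6-fold lower than C+P, a log2 difference of -4.05 (SE 0.27). D and C differed by -0.43 (SE 0.27), with a 95% interval of -1.02 to 0.16, and D+P and D by 0.20 (SE 0.27), with an interval of -0.39 to 0.79. All 12 arrays had it well above background.

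*Egr2*, known for its part in myelination and T cell tolerance, had a log2 signal of 4.60, 4.02 and 4.15 in C, 9.44, 7.47 and 7.87 in C+P, 4.60, 4.39 and 3.93 in D, and 4.84, 4.18 and 3.06 in D+P. The probe (mm9 chr10:67004758-67004817) was well above background on the 3 C+P arrays and on no other array, so its level elsewhere is only a bound. The C+P mean was 8.26 ± 1.04 (SD, n = 3), against measured means of 4.26 ± 0.31 in C, 4.02 ± 0.90 in D+P and 4.31 ± 0.34 in D (SD, n = 3 each). On the scale of the scanner's processed signal, C+P was at least 10.9-fold higher than C, and D+P at least 9.15-fold lower than C+P. Without C+P replicate 1 these bounds were 7.24-fold and 6.08-fold. Each bound sets the mean of the bright group against a floor on each dim array, which is the dimmest signal that counted as well above background there, or the probe's own value if higher. The bounds do not carry over to another background correction (normexp), under which the measured difference was 2.09 log2 in place of 4.01 between C+P and C, and -2.15 in place of -4.24 between D+P and C+P. C+P replicate 1, an array with spot noise outside the accepted range, had the highest *Egr2* signal. Without the 5 noisy arrays the difference was 3.59.

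*Egr3* is a close relative of *Egr2* that is also expressed in muscle spindles and lymphocytes. Its brightest probe (mm9 chr14:70482361-70482420) measured 3.13, 3.89 and 3.18 in C, 7.51, 6.28 and 7.41 in C+P, 2.86, 3.31 and 3.35 in D, and 2.87, 3.25 and 3.03 in D+P, in log2 units. It was well above background on the 3 C+P arrays only. It did not pass the filter, which required signal in every group, and it was not among the 8 tested member probes. It was fitted when no filter was set or when the filter asked for signal well above background, which it met through C+P alone. The bound on the difference was at least 4.74-fold between C+P and C and at least 3.99-fold between C+P and D+P. No fold is given for the other 2 *Egr3* probes. The second (mm9 chr14:70481979-70482038) read 4.90, 4.56 and 5.90 in C+P, where replicate 3 alone was well above background, and at most 4.76 in the other groups. The dimmest (mm9 chr14:70478827-70478886) was well above background on no array. The files place the dimmest probe from base 278 of its transcript and the brighter pair from bases 3483 and 3865.

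*Egr4*, a family member expressed mostly in the nervous system, was not well above background on any of the 12 arrays. Its probe (mm9 chr6:85461153-85461212) read between 2.86 and 3.26 log2 throughout, and no fold is given.

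*Nab2* encodes the corepressor that EGR factors themselves induce. The brighter of its 2 probes (mm9 chr10:127098009-127098068) gave a log2 signal of 8.44, 8.43 and 8.39 in C, 9.16, 8.93 and 8.86 in C+P, 8.19, 8.40 and 8.38 in D, and 8.62, 8.15 and 8.48 in D+P. Every C+P array lay above the other 9, and the other groups overlapped. The difference between C+P and C was 0.56 (SE 0.16), or 1.48-fold, and that between D+P and C+P was -0.56 (SE 0.16). It was thus smaller on the log2 scale than the 3.82 of *Egr1* in the same hearts. The second *Nab2* probe (mm9 chr10:127101413-127101472), assigned to another transcript, was well above background on no array and read between 2.83 and 5.17.

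*Nr4a1* encodes NUR77, the family member studied most in muscle metabolism. Its log2 signal was 8.42, 8.49 and 8.44 in C, 12.73, 12.45 and 11.62 in C+P, 9.41, 8.85 and 8.45 in D, and 8.50, 8.66 and 8.81 in D+P. The C+P arrays stood apart, and D spread upward from the level of C, with D replicate 1 highest. The mean of C+P was 12.26 ± 0.58, against 8.45 ± 0.04 in C, 8.66 ± 0.15 in D+P and 8.90 ± 0.48 in D (SD, n = 3 each). C+P exceeded C by 3.82 log2 (SE 0.30), or 14.1-fold, and D+P was 12.2-fold lower than C+P (log2 difference -3.61, SE 0.30). D and C differed by 0.46 (SE 0.30), with a 95% interval of -0.20 to 1.12. Without D replicate 1, the array of highest spot noise, the difference was 0.20, and without the 5 noisy arrays 0.19. The probe (mm9 chr15:101105071-101105130) was well above background on 12 of 12 arrays.

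*Nr4a2* encodes NURR1, known above all for dopaminergic neurons. Its brighter probe (mm9 chr2:56960000-56960059) measured 5.60, 5.66 and 5.65 in C, 6.69, 8.0 and 7.20 in C+P, 5.53, 5.72 and 5.59 in D, and 5.93, 5.42 and 5.57 in D+P, in log2 units. Its second probe (mm9 chr2:56960699-56960758) measured 5.73, 5.53 and 5.43 in C, 6.66, 7.47 and 7.28 in C+P, 5.36, 5.36 and 5.19 in D, and 5.38, 4.85 and 3.80 in D+P. On both probes the C+P arrays lay above the other 9. Both probes target the same transcript and are not independent measures of it. C+P exceeded C by 1.66 (SE 0.28) on the brighter probe and 1.57 (SE 0.35) on the second. D+P was 3.15-fold lower than C+P on the brighter probe (log2 difference -1.66), and 1 of the 3 D arrays was well above background on each probe. On the second it was at least 4.09-fold lower, a bound because no D+P array was well above background there. C+P replicate 1 had the lowest *Nr4a2* signal of its group on both probes, although it had the highest signal of *Egr1*, *Egr2* and *Nr4a1*. With normexp the difference on the brighter probe was 0.92 between C+P and C and -0.91 between D+P and C+P, and without the 5 noisy arrays it was 1.95.

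*Nr4a3* encodes NOR1, which in muscle is induced by exercise and adrenergic signals. Its brightest probe (mm9 chr4:48064521-48064580) measured 5.70, 5.62 and 5.84 in C, 6.26, 6.18 and 5.53 in C+P, 6.78, 5.86 and 6.37 in D, and 6.10, 6.14 and 5.46 in D+P. C and C+P overlapped, with a difference of 0.27 (SE 0.28) and a 95% interval of -0.35 to 0.90. All 3 D arrays lay above the 3 C arrays by a narrow margin, with a difference of 0.62 (SE 0.28) and an interval of -0.01 to 1.25. With normexp it was 0.23. Its other 2 probes, assigned to other transcripts, were well above background on no array. The probe listed across mm9 chr4:48080690-48083876, a span longer than the probe itself, read between 2.97 and 5.74. The one at mm9 chr4:48062977-48063036 read 2.98, 4.23 and 4.93 in C+P and between 2.82 and 3.52 in the other groups.

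*Srf* encodes the factor whose known motif is the CArG box. It was well above background on 12 of 12 arrays. Its log2 signal was 9.98, 9.79 and 9.76 in C, 10.80, 9.92 and 9.99 in C+P, 10.71, 9.97 and 10.13 in D, and 10.34, 10.10 and 8.70 in D+P. All 4 groups overlapped one another. The extreme readings, in replicate 1 of C+P and of D and in replicate 3 of D+P, came from arrays with spot noise outside the accepted range. The difference was 0.39 (SE 0.40) between C+P and C and -0.52 (SE 0.40) between D+P and C+P. Without the 5 noisy arrays these were 0.18 and 0.15, the second from the 1 D+P array left.

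**Figure D2:**
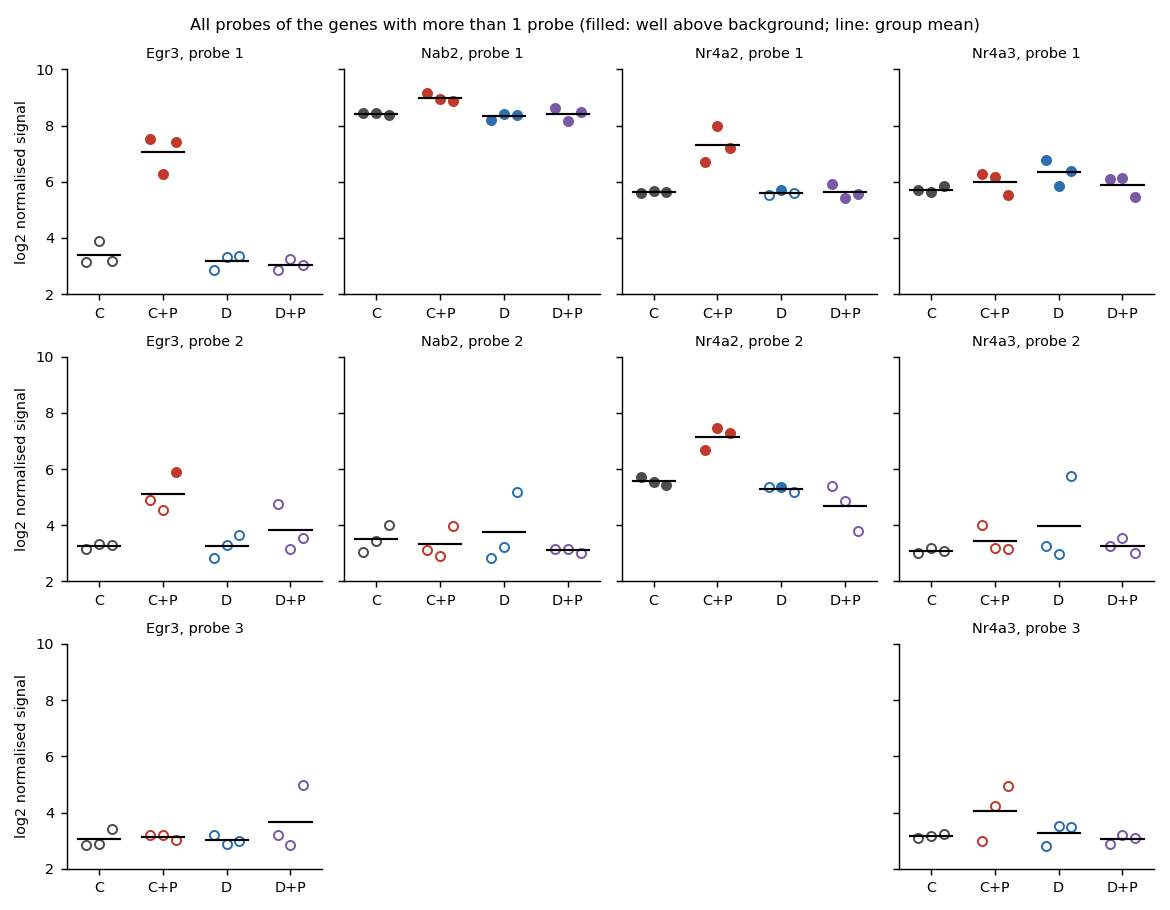
Each panel plots the log2 normalised signal (vertical axis) of 1 probe of *Egr3*, *Nab2*, *Nr4a2* or *Nr4a3* in the 4 groups (horizontal axis), ordered by brightness from top to bottom. Points are arrays, filled where well above background, and lines are group means. The 2 probes of *Nr4a2* both placed C+P highest, while those of *Egr3* were well above background on 3 C+P arrays for the brightest, on 1 for the second and on none for the dimmest.

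The comparison of C+P with C asked what pargyline does in hearts without diabetes. The arrays did not overlap, with C+P higher, for 6 of the 8 member probes and for 7.35% of all tested probes. The difference exceeded 1 log2 for *Egr1*, *Egr2*, *Nr4a1* and both *Nr4a2* probes, and for 0.768% of all. The median difference was 1.62 over the 8 member probes and -0.01 over all tested probes. At a Benjamini-Hochberg adjusted p of 0.05 in the limma fit over all tested probes, 3 of the 8 member probes lay past the threshold (*Egr1*, *Egr2* and *Nr4a1*), beside 0.0292% of tested probes with higher signal in C+P and 0.0324% in either direction. At an unadjusted p under 0.05 the count was 6, beside 4.43% of tested probes. These genes were selected on this contrast among others, so the counts are no evidence about them. The count of 3 became 0 in the methods' t-test, which passed 1 probe of the whole array. The study reported far more genes for this contrast and for D against C, so this rerun does not reproduce its result. The count became 1 (*Egr1*) when the fit was limited to the arrays of C and C+P, which passed 2 probes of the whole array. *Egr2* was lost without any 1 array of C, C+P or D, or without D+P replicate 2. With any 1 array left out the count was 2 or 3, beside 4 to 12 probes of the whole array. Without the 5 noisy arrays it was 0, with differences of 3.50 for *Egr1* and 3.57 for *Nr4a1*.

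D+P against C+P asked what diabetes does under pargyline. D+P arrays lay wholly below C+P arrays for 6 of the 8 member probes and for 6.57% of all. The median difference was -2.06 over the member probes, or -1.84 with *Egr2* and the second *Nr4a2* probe at their bounds, and 0.01 over all tested probes. This contrast uses the same 3 C+P arrays as C+P against C, so the 2 sets of differences are not separate observations. Both of its groups lay on the same slide. The probes past the limma threshold were again those of *Egr1*, *Egr2* and *Nr4a1*, beside 0.0421% of tested probes with lower signal in D+P and 0.0454% in either direction, and 6 of the 8 had an unadjusted p under 0.05, beside 7.46%. The choice of genes that are high in C+P fixed this outcome as well. The methods' t-test passed 0 member probes and 1 probe of the whole array. The fit restricted to those 6 arrays passed 1 member probe (*Egr1*) and 2 probes of the whole array. With 1 array left out 2 to 4 passed, the 4 without D+P replicate 1, and *Egr2* was lost without any 1 array of C, without replicate 1 or 3 of C+P, 1 or 2 of D, or 2 or 3 of D+P. Without the 5 noisy arrays, with 1 D+P array left, 0 passed, and the differences were -3.81 for *Egr1* and -3.37 for *Nr4a1*.

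**Figure D3:**
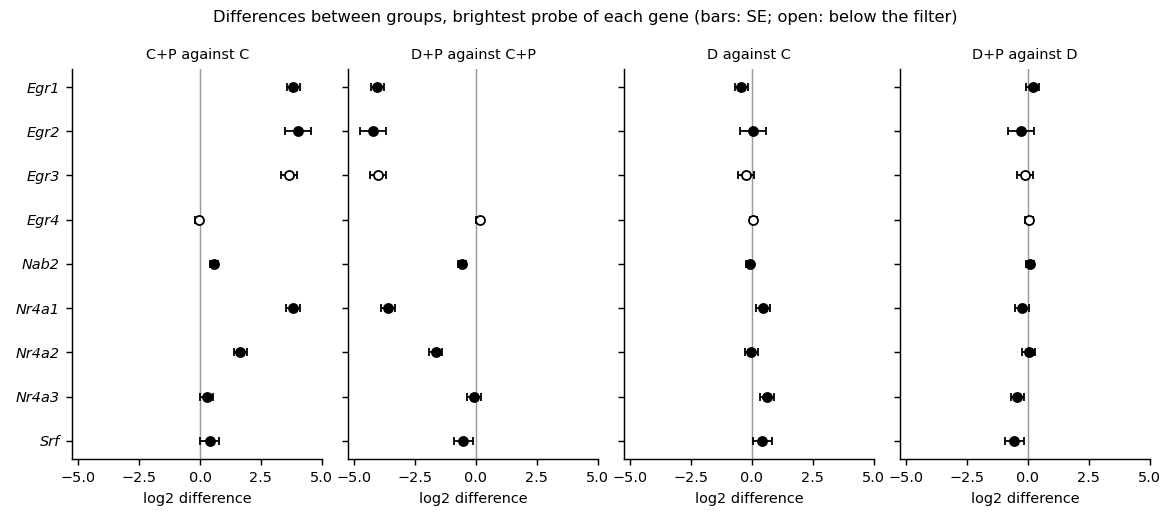
The horizontal axis gives the log2 difference between 2 groups for the brightest probe of each gene (vertical axis), and bars are standard errors. Open points are probes below the filter on dim signal, whose differences come from a fit over all probes and whose level in dim groups is only a bound, as is that of *Egr2* outside C+P. The difference of *Egr1* was 3.82 between C+P and C and -4.05 between D+P and C+P, but -0.43 between D and C and 0.20 between D+P and D.

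D against C asked what diabetes does without pargyline. Of the 8 member probes 0 passed in limma and 0 in the methods' t-test, while 0.00648% of tested probes passed in limma and 0 in the methods' t-test. For 0 of the 8 the unadjusted p was under 0.05, beside 10.8% of tested probes. The arrays did not overlap for *Nr4a3*, higher in D, and for the second *Nr4a2* probe, lower in D, whose difference was -0.26 (SE 0.35) with 1 of 3 D arrays well above background. For all tested probes that share was 11.9% higher and 10.4% lower. The median difference was 0.01 over the member probes and -0.01 over all. In D+P against D, which asked what pargyline does in diabetic hearts, 0 member probes passed by either tool, while 0% of tested probes passed in limma and 1 probe of the array in the methods' t-test. An unadjusted p under 0.05 was found for 0 member probes and for 13.3% of tested probes. The arrays of D+P and D overlapped for each of the 8 member probes, while the share without overlap was 17% over all tested probes. The 95% interval of the D+P minus D difference was -0.91 to 0.41 for *Nr4a1*. None is given for *Egr2*, whose signal was a bound in both groups.

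The interaction takes the D+P minus C+P difference and subtracts the D minus C difference. It was -3.62 log2 (SE 0.38) for *Egr1*, -4.07 (SE 0.42) for *Nr4a1* and -1.63 (SE 0.40) for the brighter *Nr4a2* probe, which was dim on 2 of the 3 D arrays. Smaller values were found for *Nab2* (-0.47, SE 0.23), *Nr4a3* (-0.71, SE 0.40) and *Srf* (-0.95, SE 0.57). No value is given for *Egr2*, since its level in C, D and D+P was only a bound. These genes were picked for standing apart in C+P on the same arrays, so their place past the threshold is no separate evidence. The probes of *Egr1* and *Nr4a1* lay past it (adjusted p of 0.0221 for both in limma), and 0.00648% of tested probes did. The unadjusted p was under 0.05 for 5 of the 8 member probes and for 7.03% of tested probes. Leaving out any 1 array other than C+P replicate 3 or D replicate 3 gave 0 probes past the threshold, among the members and over the whole array. Over all alternatives run the value stayed between -3.84 and -3.23 for *Egr1* and between -4.39 and -3.56 for *Nr4a1*. Without C+P replicate 3 *Nr4a1* alone passed, and without D replicate 3 both did, with no other probe of the array. With the replicate number as a block 0 passed, among the members and over the whole array. Without the 5 noisy arrays, and so with 1 D+P array, 0 passed, and the values were -3.23 for *Egr1*, -3.56 for *Nr4a1*, -2.18 for *Nr4a2*, -0.72 for *Nab2*, -0.10 for *Nr4a3* and -0.13 for *Srf*. With normexp the value was -0.91 for *Nr4a2* and -0.30 for *Nr4a3*.

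How alike the genes were over arrays is given as Pearson's r without a test, because the points share slides and the genes were chosen for this pattern. Over the 12 arrays *Egr1* had an r of 0.97 with *Egr2*, 0.96 with *Nr4a1*, 0.90 with *Nab2* and 0.89 with *Nr4a2*, but -0.01 with *Nr4a3* and 0.29 with *Srf*. Over the 9 arrays outside C+P, on none of which *Egr2* was well above background, the values for the other 5 genes were -0.16, 0.15, 0.34, -0.29 and 0.04. *Nr4a3* and *Srf* had an r of 0.74 over 12 arrays and 0.82 over those 9. Among those 9, both were highest on D replicate 1 (6.78 and 10.71) and lowest on D+P replicate 3 (5.46 and 8.70). Both arrays had spot noise outside the accepted range, so this r may rest on them. Leaving out C+P thus lowered r between *Egr1* and the other genes high in C+P, but not r between *Nr4a3* and *Srf*.

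Outside the list, the 5 genes most like *Egr1* over the 12 arrays were *Ier2* (r = 0.983), *Cxcl1* (0.980), *Btg2* (0.952), *Fos* (0.947) and *Fosb* (0.930). *Fos* and *Fosb* encode AP-1 subunits, *Ier2* is an immediate early gene, *Btg2* encodes an antiproliferative protein and *Cxcl1* a neutrophil chemokine. Their C+P minus C differences in log2 were 1.99 (SE 0.15) for *Ier2*, 2.55 (SE 0.20) for *Cxcl1*, 1.35 (SE 0.22) for *Btg2*, 4.42 (SE 0.47) for *Fos* and 2.76 (SE 0.36) for *Fosb*. *Fos* was well above background on 1 of the 3 C arrays and *Fosb* on 2, and both were on no array of D or D+P, so their size depends on dim signal. The 5 most like *Nr4a1* were *Zfp36* (0.954), which encodes an mRNA decay factor, *Icam1* (0.945), *Junb* (0.942), *Cxcl1* (0.939) and *Hey1* (0.938), a Notch target. Their differences were 1.28 (SE 0.25), 1.08 (SE 0.16), 1.86 (SE 0.30), 2.55 (SE 0.20) and 1.03 (SE 0.17). *Cxcl1* was the gene that both sets of 5 held. Over the 9 arrays without C+P, r ranged from 0.14 for *Fosb* to 0.64 for *Btg2* against *Egr1*, and from -0.21 for *Cxcl1* to 0.80 for *Zfp36* against *Nr4a1*.

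**Figure D4:**
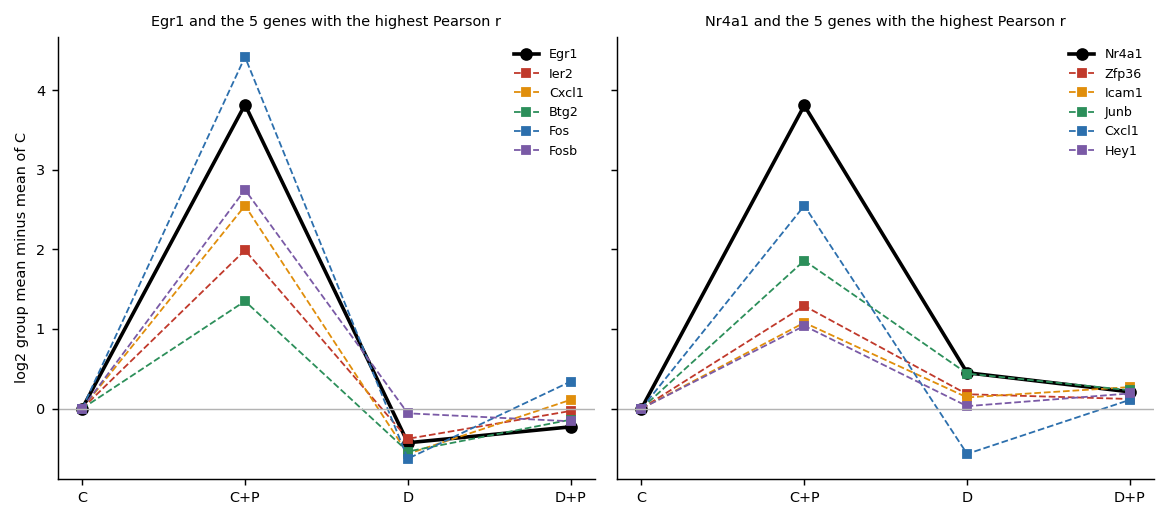
The vertical axis gives each group's mean log2 signal minus the mean of C, and the horizontal axis gives the 4 groups. The left panel shows *Egr1* and the right panel *Nr4a1* (solid lines), each with the 5 non-member genes of highest Pearson r over 12 arrays (dashed lines). Every gene shown peaked in C+P, which the choice by r with these 2 genes favoured. *Fos* and *Fosb* were dim on all D and D+P arrays and on some C arrays.

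Genes that act on this system were then taken from a list of 35 partners, all of which were tested. They were 11 ERK pathway kinases, 6 SRF cofactors, 6 CREB family members and coactivators, 7 genes of the MEF2 arm, 3 RXR partners of NR4A dimers and 2 chromatin remodellers that associate with NAB proteins. Of these 35 genes 0 passed in any of the 5 contrasts in limma, and 0 passed in the methods' t-test in the 4 pairwise contrasts. An unadjusted p under 0.05 was found for 0 of the 35 in C+P against C and 0 in the interaction, for 1 in D+P against C+P, and for 2 each in D against C and D+P against D. Over all tested probes those shares were 4.43%, 7.03%, 7.46%, 10.8% and 13.3%, in the same order. In C+P against C the median difference was -0.06, beside -0.01 over all tested probes. The values ran from -0.42 for *Mef2c* to 0.64 for *Prkd1*, a kinase that drives class IIa histone deacetylases out of the nucleus. By subgroup the C+P minus C medians were -0.06 for the ERK kinases, 0.05 for the SRF cofactors, 0.00 for the CREB group, -0.08 for the MEF2 arm, 0.02 for the RXR genes and -0.14 for the remodellers. In D against C the values ran from -1.02 for *Hdac4*, a repressor of MEF2, to 0.40 for *Map2k1*. In D+P against C+P they ran from -0.53 for *Prkd1* to 0.64 for *Elk4*, a ternary complex factor, and in D+P against D from -0.57 (SE 0.56) for *Chd3* to 0.60 (SE 0.24) for *Map2k2*. The D+P arrays of *Chd3* had an SD of 1.49, against 0.15 to 0.26 in the other groups.

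Genes known as targets were read in the same way. All 11 EGR targets and 7 NR4A targets in muscle were tested, and of these 18 genes 0 passed in any contrast in limma or, in the pairwise contrasts, in the methods' t-test. For 6 genes the unadjusted p was under 0.05 in D against C, for 4 in D+P against C+P, and for 2 in each of the other contrasts, beside the shares of all tested probes given above. In C+P against C the median was 0.16 over the EGR targets and -0.01 over the NR4A targets, beside -0.01 over all tested probes. The highest value was that of *Icam1*, a leukocyte adhesion molecule, at 1.08 log2 (SE 0.16). *Icam1* did not reach the threshold (adjusted p of 0.0934 in limma) but passed with array weights and with another filter on dim probes. Under both settings more probes of the whole array passed in this contrast as well. The lowest value was -0.27, for the urokinase gene *Plau*. In D+P against C+P the values ran from -0.81 for *Icam1* to 0.92 for *Fbp2*, a muscle enzyme of gluconeogenesis, with medians of -0.30 over the EGR targets and -0.28 over the NR4A targets. In D against C they ran from -0.98 for *Fgf2* to 0.83 for *F3*, the gene of tissue factor. *Fgf2* was well above background on 1 array of C and on no other array, so its value compares dim signals. In D+P against D they ran from -1.10 (SE 0.57) for *Phka1*, with an SD of 1.55 over the D+P arrays, to 0.71 (SE 0.27) for *Vegfa*.

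**Figure D5:**
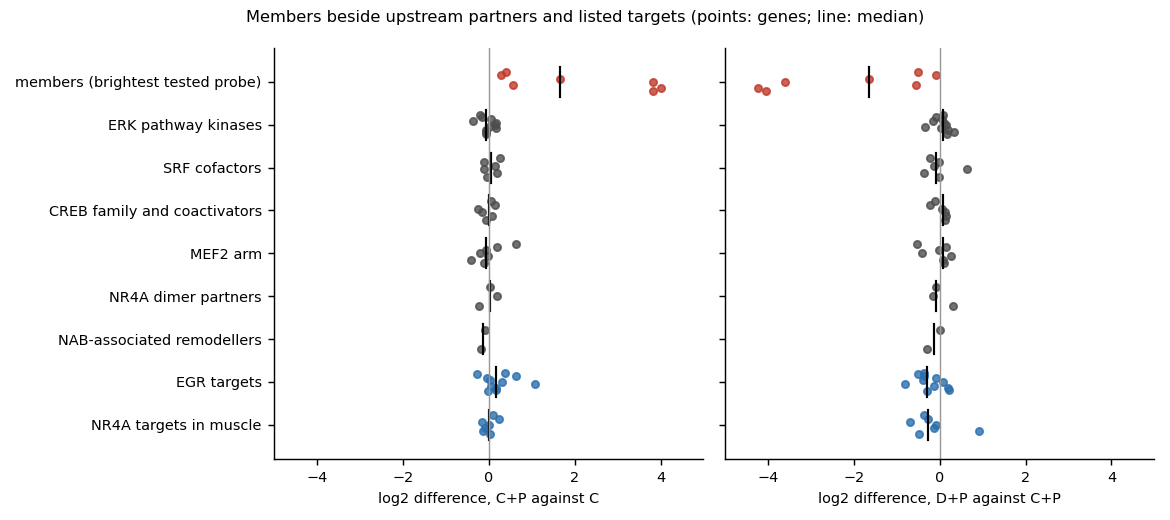
The horizontal axes give the log2 difference of C+P against C (left) and of D+P against C+P (right), and each point is 1 gene. Rows are the member genes by their brightest tested probe (red), the 6 partner subgroups (grey) and the 2 target subgroups (blue), and black lines are medians. Partner genes lay between -0.42 and 0.64 on the left, where *Egr1* and *Nr4a1* lay at 3.82 and *Egr2*, dim outside C+P, is plotted at its measured 4.01.

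Markers of other cell types were read beside these results. The mean log2 signal of the 2 neutrophil markers, *S100a8* and *S100a9*, ranged from 7.79 to 9.54 over the C+P arrays, from 5.93 to 7.38 in C, from 7.27 to 7.62 in D and from 6.01 to 7.38 in D+P. Both markers were thus highest in the same group as *Egr1* and *Nr4a1*, with C+P minus C differences of 2.09 (SE 0.72) and 1.96 (SE 0.45), and neither passed the test (adjusted p of 1 and 0.53 in limma). Their part in the signal of the Egr and Nr4a genes was not tested. For the 4 macrophage and leukocyte markers the mean ranged from 10.69 to 10.80 in C+P and from 10.77 to 11.11 in C. It ranged from 10.23 to 10.75 in D and from 10.17 to 10.47 in D+P. The 4 genes did not move together. D+P minus C+P was -0.93 for *Adgre1*, -0.61 for *Cd68*, -0.24 for *Ptprc* and 0.21 for *Itgam*. C+P minus C was 0.21, -0.10, -0.46 and -0.36 in the same order. The part of these cells in the signal was not tested either. The means for the 6 cardiomyocyte markers ranged from 15.57 to 15.86 in C+P and from 15.75 to 15.86 in C. The 4 fibroblast markers ranged from 11.18 to 11.48 and from 11.50 to 11.54, and the 4 endothelial markers from 10.22 to 10.56 in C+P and from 10.24 to 10.56 in C. Of the 3 adipocyte markers, *Adipoq* and *Plin1* were well above background on no array, and *Cfd* was on 1 array each of C, C+P and D+P and on 2 of D.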

How the data were processed

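The authors labelled 200 ng of total RNA (integrity number above 7) with Cy3 and hybridised it to 1-colour Agilent mouse arrays. The deposited scanner files hold spot intensity on a linear scale, background subtracted and detrended by Feature Extraction 12.0.0.7 per the file headers, which differs from the version in the study's methods. The series table, also deposited, holds intensity that the authors quantile normalised. The deposited intensities are not log2 values, and log2 was taken here.

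Control spots were left out, outlier spots were set to missing, and log2 signal was quantile normalised over 12 arrays and averaged over repeat spots. Of 56605 probes, 30859 were tested, with 2.03% of their values not positive and significant. limma 3.58.1 (R 4.3.3, with the package data.table, version 1.17.8) fitted 1 mean per group (8 residual and 2.62 prior degrees of freedom, prior SD 0.289), with two-sided Benjamini-Hochberg adjusted p over all tested probes. The fit was tested on simulated data. Each mouse is 1 replicate. Named are all 10 listed genes, the extremes of the partner and target lists, and the 5 genes most like *Egr1* and *Nr4a1*. A list gene is represented by its brightest tested probe. Probe coordinates are mm9, from the files. The *Srf* coordinates are left out because the files list them as 8 bases, and those of *Egr1* are not printed. Promoters came from RefSeq, GRCm38.p6. Alternatives were another scaling, background correction, filters, array weights, fewer groups, the methods' t-test, a replicate block and each array left out. The listed genes, partners and targets were chosen with earlier results of these data known. Figures used Python 3.11.15, matplotlib 3.10.9, pandas 2.3.3 and numpy 2.4.6.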

Additional observations from a re-analysis of the deposited data

Results flagged for a closer look

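For 2 of the listed genes the effect of diabetes differed between hearts with and without pargyline by the interaction term of the limma fit. The difference was -3.62 log2 for *Egr1* and -4.07 for *Nr4a1*. With pargyline the change from non-diabetic to diabetic was -4.05 for *Egr1* and -3.61 for *Nr4a1*, and without it -0.43 and 0.46. All 3 C+P arrays lay above all 9 others for both genes. Without the 5 noisy arrays, which leaves 1 array of D+P, or without any 1 array other than C+P replicate 3 or D replicate 3, neither gene passed. Neither gene passed with the replicate number as a block. Over all alternatives run the difference lay between -3.84 and -3.23 for *Egr1* and between -4.39 and -3.56 for *Nr4a1*. The genes were chosen with these values known, so the flag is a description.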

How the results depend on the processing

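No member difference that passed changed sign under the alternatives run, and of 808 recomputed member differences 47 moved by more than the spread between replicates. For member probes, leaving out 1 array gave 0 in D against C, 2 to 4 in D+P against C+P, 2 to 3 in C+P against C, 0 to 2 in the interaction and 0 in D+P against D. In D+P against C+P the count of 3 became 5 with the filter on signal well above background. That filter added *Egr3*, let in by C+P alone, and *Nr4a2*. The count was also 5 with array weights, and 1 with only the groups of the contrast. Over the whole array the number of probes past the threshold also rose with that filter and with array weights. It fell with only the groups of the contrast. In C+P against C the count of 3 became 5 with array weights and 1 with only the groups of the contrast. The number of probes past the threshold over the whole array likewise rose with array weights and fell with only those groups. Nothing is read from the member counts for that reason too. *Egr2* was lost in C+P against C with 75th percentile scaling, with normexp and with no filter on dim probes, and in D+P against C+P with normexp. In both contrasts the methods' t-test gave 0 with Benjamini-Hochberg and 0 with Bonferroni adjustment. Leaving out the 5 noisy arrays, an alternative chosen after seeing the data, gave 0 in the interaction, C+P against C and D+P against C+P, with 1 array of D+P left, assumed to vary like the other groups. The count of target genes was 0 in every contrast of the main fit. With array weights it became 2 in D against C (*Fgf2* and *Fbp2*), 1 in D+P against C+P (*Fbp2*) and 1 in C+P against C (*Icam1*). With the filter on signal well above background it became 1 in C+P against C (*Icam1*). In each of these cases the number of probes past the threshold rose over the whole array as well. Leaving out 1 array gave 0 target genes and 0 partner genes in every contrast. Partner genes stayed at 0 under each alternative run. With the replicate number as a block, the interaction count fell from 2 to 0, for member probes and over the whole array, and no other count of member calls changed. Same-numbered arrays correlated between -0.2 and 0.2 over 18 pairs, and 5 of 12 arrays correlated best with their own number, so the mice were not treated as paired, although replicate 1 of all 4 groups shared out-of-range spot noise. The cause of these changes was not tested. Slide as a random block could not be fitted, because slide is a combination of the group means, and identity between proteins was not run. The number of arrays and dim signal limit what *Egr3*, *Egr4* and the dim groups of *Egr2* can show.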
